A study of Mus musculus with 5 samples.

Results

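The messenger RNA of mouse E14 embryonic stem cells after 40 days of culture without leukemia inhibitory factor (LIF) was compared with that of cells kept with LIF. Both libraries came from cells labelled as overexpressing 2 enzymes of glycolysis, hexokinase (Hk2) and the pyruvate kinase form Pkm2. Members were the genes with FPKM (a fragment count divided by transcript length and by library depth, here summed over a gene's RefSeq transcripts) above 0 in both libraries, 13161 of the 21930 genes measured. The remaining 3 libraries of the series are context. They are normal E14 cells with LIF, and normal cells and cells labelled Hk2/Pkm2 whose labels give 24 hours without LIF and then LIF again. Each group has 1 library, and all are labelled with the strain C57BL/6. The labels give no promoter for the overexpressed genes and do not say whether the line is 1 clone. No difference between libraries therefore has a replicate check, and time in culture and absence of LIF cannot be told apart.

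Mouse embryonic stem cells resemble the epiblast of the early embryo. LIF binds the receptor pair Lifr and Il6st, whose JAK kinases activate the transcription factor Stat3, and Stat3 in turn sustains a set of genes called naive pluripotency genes. Cells that lose this input can move to the later, primed epiblast state or toward the first differentiated lineages. One of these lineages, the primitive endoderm, gives rise to visceral endoderm, an absorbing epithelium, and to parietal endoderm, which lays down a thick basement membrane.

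The 5 values given for a gene are FPKM in a fixed order: normal cells with LIF, cells labelled Hk2/Pkm2 with LIF, normal cells and then cells labelled Hk2/Pkm2 after the 24-hour withdrawal, and cells labelled Hk2/Pkm2 at 40 days. Ratios are differences in log2(FPKM + 1) between 40 days and the library labelled Hk2/Pkm2 with LIF, which understates the difference of genes with low FPKM. Higher or lower means at least 2-fold on this scale unless a value is given. A 0 is given as listed, since genes that every cell uses, such as Rpl3 and Eno1, are listed at 0 in all 5 libraries. In bulk RNA, fewer cells of a type and less RNA per cell cannot be told apart.

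The low values of single-transcript genes placed the depth of the 5 libraries at an estimated 35 to 41 megafragments, with 41 for cells labelled Hk2/Pkm2 with LIF and 36 at 40 days. The search covered a fixed range of depths, so the estimate could not fall outside that range. At the estimated depth 1 fragment on a transcript of 2 kb is worth 0.012 to 0.014 FPKM. More genes reached 1 FPKM at 40 days (9861) than in the other libraries (9032 to 9142). The overexpressed genes did not match the label at 40 days. Hk2 stood at 76.2, 98.6, 49.7, 59 and 29 FPKM, so it was 1.73 lower on the log2 scale at 40 days than with LIF. Pkm, which encodes Pkm2, stood at 509.8, 567, 611, 564 and 495 FPKM, and at 40 days it was below both libraries of normal cells, as was Hk2. With LIF the labelled library was above that of normal cells for both genes, by less than 2-fold. Hk2/Pkm2 is therefore used only as the libraries' label. The FPKM does not separate the introduced from the cells' own transcripts. The 2 libraries compared also differed in genes of the Y chromosome. Ddx3y stood at 11.8, 0.023, 11.8, 0.013 and 1.79 FPKM, and Eif2s3y at 34.1, 16.3, 35.1, 22.6 and 4.58 FPKM. Ddx3y was thus near 0 in both of the other libraries labelled Hk2/Pkm2 and above 1 FPKM at 40 days, whereas Eif2s3y was lowest at 40 days. The labels do not say whether the 3 libraries labelled Hk2/Pkm2 came from 1 stock of cells, and its part in the results was not tested. Hprt, which a widely used E14 subline lacks, was below 0.5 FPKM in every library.

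At 40 days 1362 genes were at least 2-fold higher than with LIF, 10.3% of the 13161, and 647 were at least 2-fold lower, 4.92%. These shares are to be set beside all counts of higher and lower list members below. The median ratio over all genes was 0.09, and 95% of ratios lay between -1.36 and 1.94. Higher genes made up 67.8% of the 2-fold differences. After quantile normalization of the 2 libraries, which moved the typical ratio down by 0.14, they made up 53.5%. Of the higher genes, 496 (3.77% of all genes tested) were also at least 2-fold above the highest of the other 4 libraries. Of the lower genes, 149 (1.13% of all) were at least 2-fold below the lowest of the other 4. These genes, 36.4% of the higher and 23% of the lower ones, are called set apart from all other libraries here. The library chosen as comparator matters for part of the genes. Of 230 list members that differed by 2-fold, 56 did not reach 2-fold in the same direction against normal cells with LIF, and 174 did. Both libraries with LIF gave the 2-fold difference for all 10 such members of the ATF4 and CHOP list, for 12 of 13 naive genes and for 7 of 9 endoderm transcription factors, but for 8 of 13 cadherins and epithelial regulators and for 2 of 6 p53 targets.

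**Figure D1:**
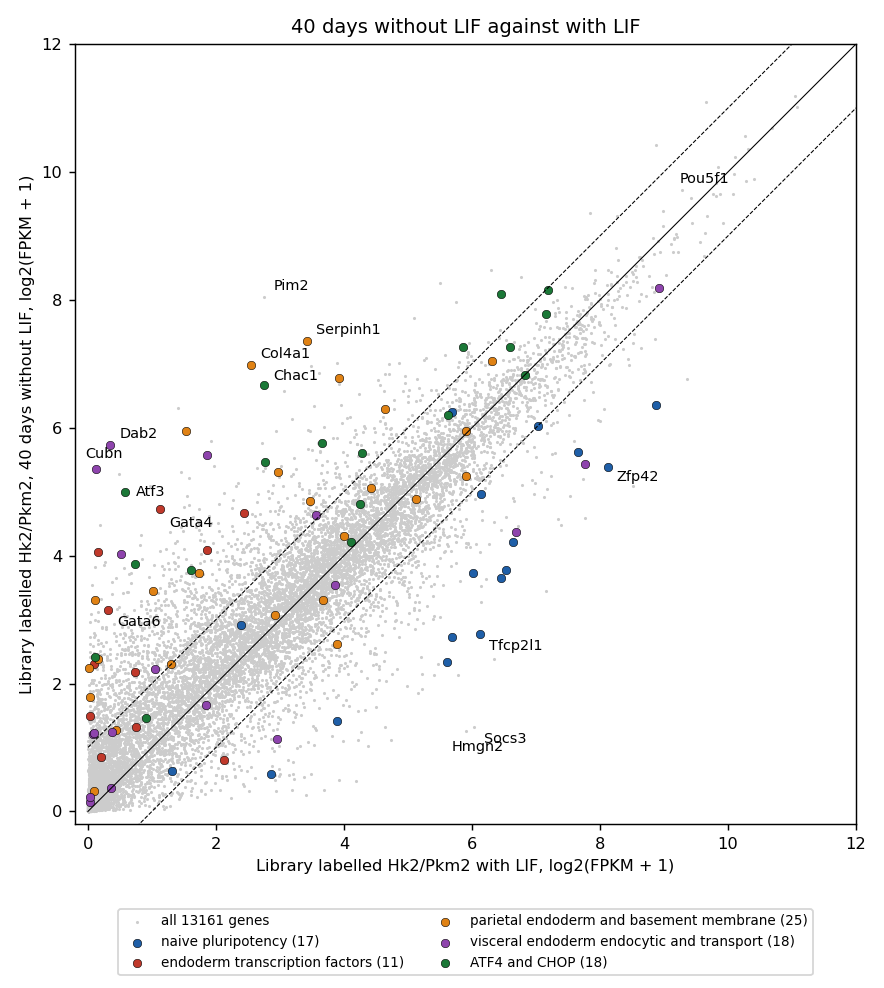
Each point is 1 of the 13161 genes above 0 in both libraries, with log2(FPKM + 1) in cells labelled Hk2/Pkm2 with LIF on the x axis and after 40 days without LIF on the y axis. The solid line marks equal values and the dashed lines 2-fold. Naive pluripotency genes (blue) lie below the lower dashed line in 13 of 17 cases. Above the upper line lie 8 of 11 endoderm transcription factors (red), 14 of 25 basement membrane genes (orange), 8 of 18 visceral endoderm genes (purple) and 10 of 18 ATF4 and CHOP genes (green).

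Genes of naive pluripotency were low at 40 days. Of 17 measured members of this list of 19, 13 were at least 2-fold lower and none was higher, with a median ratio of -2.43. Tfcp2l1, a transcription factor of the naive state, stood at 59, 68.6, 12.4, 9.13 and 5.87 FPKM. Zfp42, also called Rex1 and a common reporter of the naive state, stood at 266, 278, 118, 128 and 40.9 FPKM. Both were already lower after the 24-hour withdrawal in normal and in cells labelled Hk2/Pkm2. Gbx2 stood at 43.8, 48, 19.6, 20.7 and 4.05 FPKM and the nuclear receptor Nr0b1 at 144, 98.9, 66.2, 52.1 and 17.6 FPKM. Zfp42, Gbx2, Nr0b1, Fgf4 and Mybl2 were the 5 members set apart below all other libraries. Klf4 stood at 53.1, 63.5, 5.48, 6.66 and 12.3 FPKM and Tbx3 at 28.5, 50.7, 3.54, 3.15 and 5.61 FPKM. For both, the level at 40 days was above both levels after 24 hours. The same held for Klf5, at 49.5 and 37 FPKM after 24 hours and 64.4 at 40 days, and for Nacc1 and Pecam1. The members without a 2-fold difference were Nacc1, Pecam1 and Dppa3, and also Klf5, at 129.6 to 64.4 FPKM, just short of 2-fold.

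Among the core pluripotency genes 4 of 16 measured members were lower and none was higher, with a median of -0.21. Pou5f1, the factor Oct4 that pluripotent cells of both states share, stood at 1092, 1084, 987, 1016 and 807 FPKM, a ratio of -0.43. Nanog stood at 150.01, 183, 59.3, 54.5 and 29.6 FPKM, Esrrb at 157, 139, 55, 40.3 and 29 FPKM and Sox2 at 212, 236, 175, 186 and 93 FPKM. All 4 were lowest at 40 days, and Pou5f1 was the one without a 2-fold difference. Lin28a, an RNA-binding protein of pluripotent cells, went from 191 to 208 FPKM, and Utf1 from 318 to 289 FPKM.

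LIF signalling genes divided. Among 22 measured members, 8 were lower and 3 higher, with a median of -0.58. Socs3, the feedback inhibitor that Stat3 induces (mm9 chr11:117827393-117831361, minus strand), stood at 65.3, 64.8, 2.25, 0.97 and 1.5 FPKM, the lowest ratio of all ranked genes at -4.72. Bcl3 stood at 49.8, 34.9, 2.77, 1.0 and 2.62 FPKM and Stat3 itself at 28.2, 29.3, 6.26, 5.28 and 11.7 FPKM. Both 24-hour libraries were near the 40-day level for Socs3 and Bcl3 and below it for Stat3. Their labels say that LIF was restored after the 24 hours, yet Socs3 and Bcl3 stood far below the libraries with LIF. The reason was not tested. The receptor chain Lifr stood at 2.96, 9.85, 0, 0 and 1.12 FPKM and its partner Il6st at 7.74, 3.01, 3.16, 2.65 and 8.5 FPKM. Against normal cells with LIF neither differed by 2-fold, with ratios of -0.90 and 0.12. The Pim kinases, which promote survival, did not move together. Pim2 stood at 10.4, 5.76, 71.3, 109 and 263 FPKM, a ratio of 5.29, with the highest value at 40 days. Pim1 went from 26.4 to 77.2 FPKM and Pim3 from 109 to 33.2 FPKM.

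Primed epiblast genes were high. Of 15 measured members of that list, 9 were higher, Pim2 among them, and 2 were lower, with a median of 1.67. Fgf5, the growth factor that marks the primed state, stood at 0.068, 0.033, 0.52, 3.56 and 7.46 FPKM. Otx2, a transcription factor of the primed epiblast, stood at 1.2, 3.13, 20.7, 24.9 and 27.1 FPKM. The de novo DNA methyltransferase Dnmt3b stood at 35.8, 11.2, 31.7, 144 and 114 FPKM. Cells labelled Hk2/Pkm2 after 24 hours were close to the 40-day level for Otx2 and above it for Dnmt3b, and Fgf5 was highest at 40 days. Pou3f1, at 5.78 to 21.7 FPKM, Sall2, at 1.13 to 9.71 FPKM, and Sfrp2, at 4.56 to 16.6 FPKM, were also higher. Foxd3, at 27.8 to 11.6 FPKM, and Tcf15, at 70.4 to 22.7 FPKM, were lower and set apart below all other libraries. Dnmt3a was listed at 0 at 40 days and in normal cells after 24 hours, so it has no ratio.

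**Figure D2:**
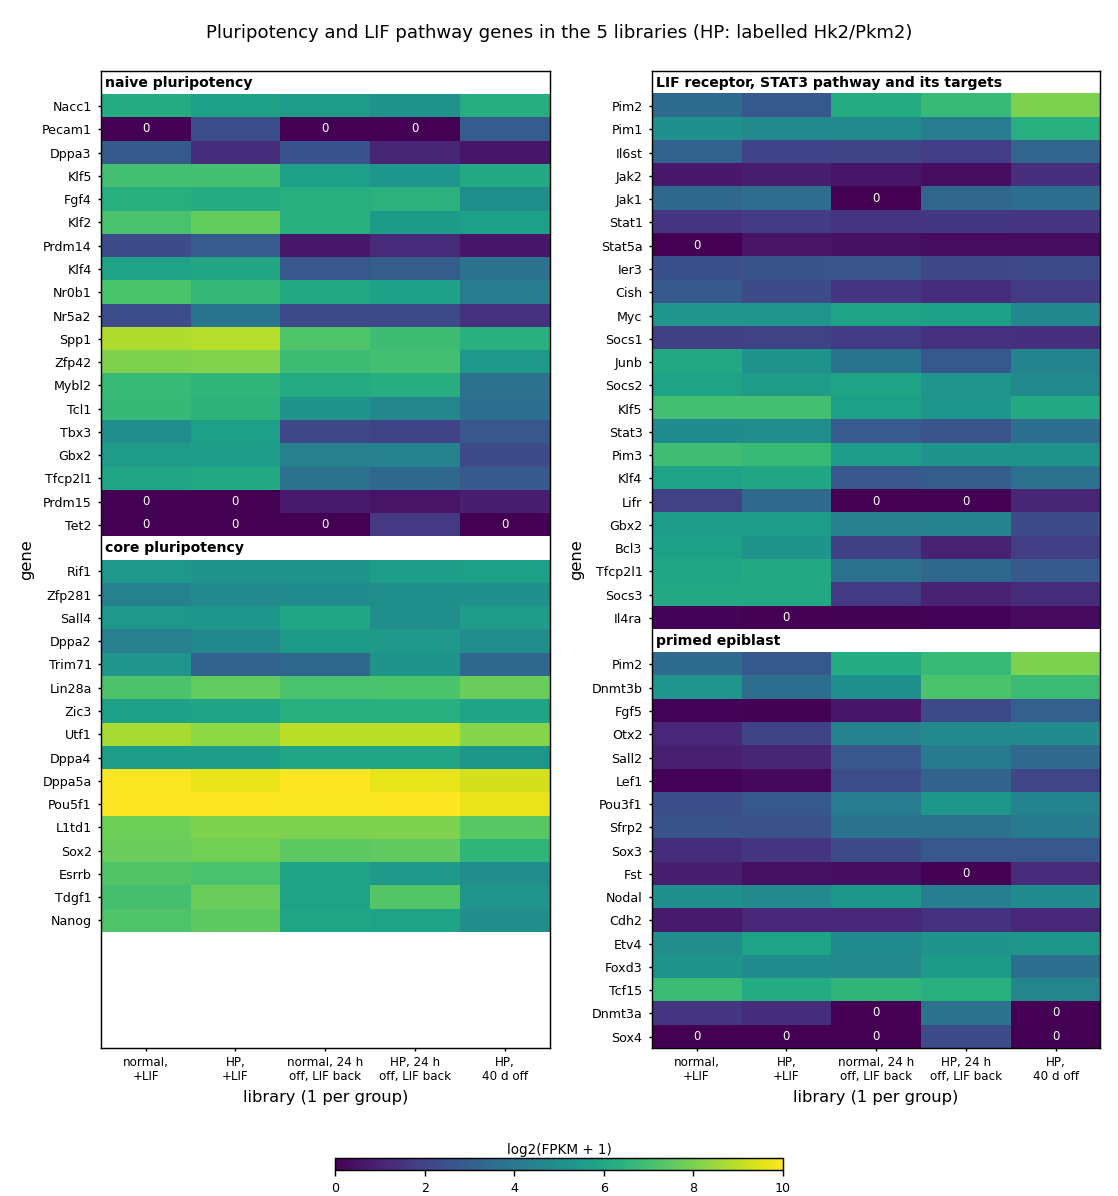
Colour shows log2(FPKM + 1) of each gene (rows, by list and ratio) in the 5 libraries (columns, 1 per group), and 0 marks a value listed at 0. Most naive genes are darker at 40 days than in both libraries with LIF, Pou5f1 and Dppa5a stay bright in all 5, and Otx2, Sall2 and Pou3f1 are brighter in the 24-hour and 40-day libraries.

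Against cells labelled Hk2/Pkm2 with LIF, transcription factors of the endoderm had the highest median ratio of all lists with 3 or more measured members. The lists and their members were chosen with earlier results of these data known, so this rank is descriptive and no test. Of 11 measured endoderm factors, 8 were higher and 1 lower, with a median of 2.22, against 0.09 over all genes. These members had a median of 1.34 against normal cells with LIF. The basement membrane, primed epiblast and ATF4 and CHOP lists were above it there, at 1.76, 1.60 and 1.45. Gata4, which with Gata6 specifies primitive endoderm (mm9 chr14:63817759-63890529, minus strand), stood at 1.51, 1.19, 1.32, 1.99 and 25.6 FPKM. Gata6 stood at 0.13, 0.25, 0.091, 0.18 and 7.88 FPKM. Sox7, a factor of parietal and early endoderm, stood at 3.02, 2.64, 0.36, 0.39 and 16.1 FPKM. All 3 were highest at 40 days and set apart. Foxq1 stood at 0.12, 0.12, 0.073, 0.11 and 15.6 FPKM and was set apart too, which held for 7 of the 11. Sox17 and Hnf4a, which also mark endoderm, were listed at 0 at 40 days, and Foxa2 reached 1.8 FPKM. Eomes, at 0.69 to 1.5 FPKM, and Foxa1, at 0.16 to 0.81 FPKM, were not 2-fold different, and Tcf7l2 was lower, at 3.35 to 0.74 FPKM, though not against normal cells with LIF (-0.22).

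All 4 measured parts of the endocytic receptor complex of the visceral endoderm were higher. In yolk sac and kidney, cubilin (Cubn) binds ligands, Amn anchors it in the membrane, megalin (Lrp2) is a second large receptor, and Dab2 is the adaptor that links them to endocytosis. Dab2 stood at 0.21, 0.28, 1.09, 0.24 and 52 FPKM, the highest ratio of all ranked genes at 5.38. Cubn stood at 0.052, 0.090, 0.013, 0 and 40.1 FPKM, Lrp2 at 1.26, 2.64, 7.65, 10.1 and 46.7 FPKM and Amn at 0.33, 0.43, 0.24, 0.46 and 15.3 FPKM. All 4 were set apart above the other libraries, although Lrp2 was also above its level with LIF in both 24-hour libraries. Over the 18 measured members of the list of 32, 8 were higher, 3 were lower and the median was 0.52. Afp, Alb, Apoa4 and Fga, whose products the visceral endoderm secretes, were listed at 0 in all 5 libraries, a value that some genes used by every cell also carry in these files. S100g and Ihh, listed at 0 in cells labelled Hk2/Pkm2 with LIF, were at 4.28 and 1.85 FPKM at 40 days. Ttr and Apoa1 were at 0.17 and 0.11 FPKM at 40 days, whereas the lipoprotein Apoe stood at 969, 485, 624, 243 and 290.2 FPKM and the retinol carrier Rbp4 reached 1.36 FPKM. The 3 lower members were Tdh, at 217 to 42.3 FPKM, Spink1, at 102 to 19.8 FPKM, and Trf, at 6.78 to 1.18 FPKM. Tdh, a threonine dehydrogenase, is itself abundant in mouse embryonic stem cells. Against normal cells with LIF, Trf was not lower, with a ratio of 0.16.

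Basement membrane genes and the enzymes that build collagen were high. Of 25 measured members, 14 were higher and 1 lower, with a median of 1.38, and 13 were set apart. Col4a1 and Col4a2 encode the chains of the type IV collagen of basement membranes. Col4a1 stood at 1.96, 4.87, 1.92, 2.86 and 125 FPKM and Col4a2 at 0.93, 1.88, 0.56, 1.2 and 60.9 FPKM, with ratios of 4.42 and 4.43. Both were below 5 FPKM in the other 4 libraries. In the GENCODE vM1 annotation of mm9, Col4a1 (chr8:11198423-11312826, minus strand) and Col4a2 (chr8:11312805-11449287, plus strand) are divergent neighbours whose annotated starts overlap. Their RefSeq promoter windows, 250 bases before to 50 after the start on GRCm38.p6, are shown because the pair had nearly equal ratios and their windows overlap. Capitals mark the 78 bases that both windows hold, which read as reverse complements of each other.
Col4a1 (chr8:11312777-11313076, minus strand): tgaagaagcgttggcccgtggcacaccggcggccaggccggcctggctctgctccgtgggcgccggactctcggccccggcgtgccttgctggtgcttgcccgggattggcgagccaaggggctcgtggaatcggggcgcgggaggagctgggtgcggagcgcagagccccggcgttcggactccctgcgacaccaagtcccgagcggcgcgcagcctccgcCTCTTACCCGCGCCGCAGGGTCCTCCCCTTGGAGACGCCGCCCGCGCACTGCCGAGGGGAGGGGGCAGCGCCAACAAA
Col4a2 (chr8:11312555-11312854, plus strand): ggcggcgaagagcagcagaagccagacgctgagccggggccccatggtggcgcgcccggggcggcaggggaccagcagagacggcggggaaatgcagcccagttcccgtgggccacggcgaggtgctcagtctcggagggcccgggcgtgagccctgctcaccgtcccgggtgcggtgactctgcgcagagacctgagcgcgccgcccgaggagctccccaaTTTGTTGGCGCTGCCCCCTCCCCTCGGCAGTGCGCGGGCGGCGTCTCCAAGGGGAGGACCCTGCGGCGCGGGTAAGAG

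Collagen chaperone and modifying enzymes were higher in part. Serpinh1, the chaperone Hsp47 of procollagen, stood at 5.69, 9.76, 4.81, 6.83 and 162 FPKM. The prolyl hydroxylase subunits P4ha1 and P4ha2, which stabilise the collagen helix, went from 1.02 to 9.95 FPKM and from 2.34 to 12.2 FPKM. The lysyl hydroxylase Plod2 went from 6.81 to 38.4 FPKM, while Plod1, at 11.8 to 8.88 FPKM, and Plod3, at 15.1 to 18.8 FPKM, were not 2-fold different. Laminin chains differed among themselves. Lama1 stood at 17.4, 23.9, 2.52, 0.44 and 77.3 FPKM, Lamb1 at 19.9, 14.2, 22.4, 20.1 and 108 FPKM and Lamc1 at 66.5, 78.8, 47.3, 46.7 and 131 FPKM, the 3 chains of the laminin of the embryonic basement membrane. Lama1 was low in both 24-hour libraries and highest at 40 days, and Lamc1 missed the 2-fold limit with a ratio of 0.72. Nid2, at 58.8 to 60.8 FPKM, Hspg2, at 34 to 28.5 FPKM, and Fn1, at 58.7 to 37 FPKM, were not higher, and Nid1, at 13.9 to 5.13 FPKM, was lower. Pth1r, the parathyroid hormone receptor that parietal endoderm carries, stood at 0, 0.085, 0.32, 0.065 and 8.84 FPKM, and Pdgfra, a receptor of primitive endoderm, at 0.094, 0.11, 0, 0.091 and 4.2 FPKM. Both were near 0 in every library but that of 40 days. Sparc, abundant in parietal endoderm, was listed at 0 at 40 days and also in normal cells with LIF, against 74.3 FPKM in cells labelled Hk2/Pkm2 with LIF, so its value cannot be read.

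**Figure D3:**
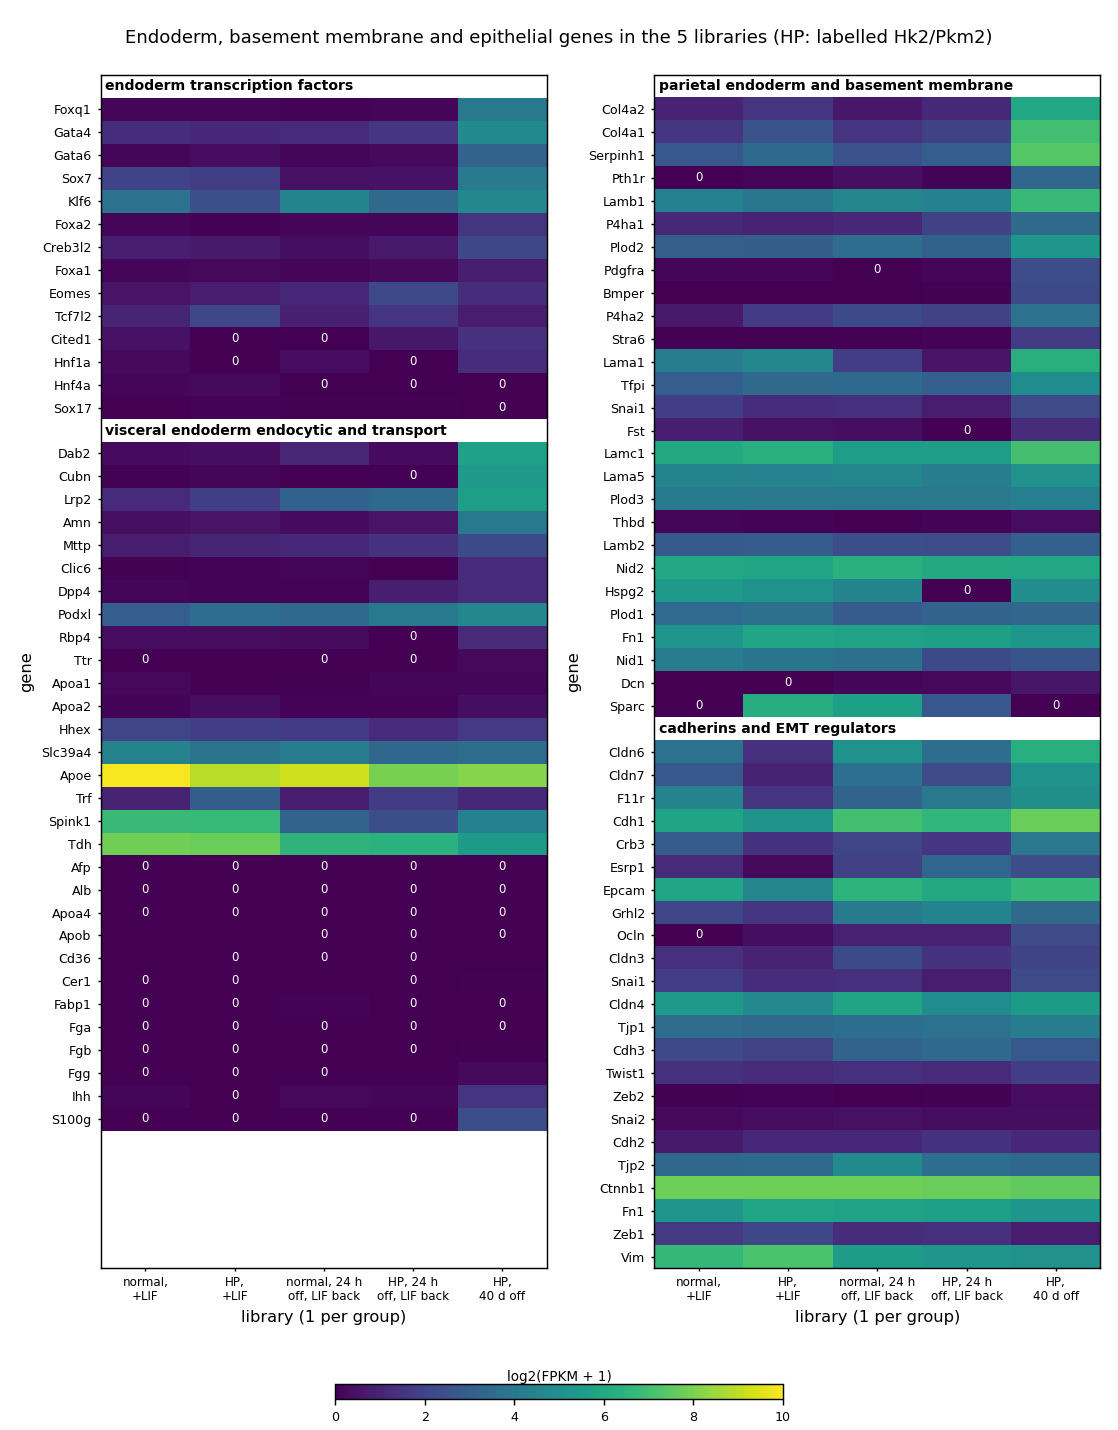
Colour shows log2(FPKM + 1) of endoderm, basement membrane and epithelial genes (rows, by list and ratio, with 1 list member not drawn) in the 5 libraries (columns, 1 per group), and 0 marks a value listed at 0. The last column is the brightest for Gata4, Dab2, Cubn, Col4a1 and Serpinh1, while Afp, Alb and Apoa4 are listed at 0 throughout.

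Epithelial junction genes were higher than in the matched library with LIF, which held low values of several of them. Of 23 cadherins and regulators of the epithelial state, 11 were higher and 2 lower, with a median of 0.73. Cdh1, E-cadherin, stood at 56, 33, 125, 94.4 and 208 FPKM. The tight junction proteins Cldn6 and Cldn7 stood at 12.2, 1.66, 34.5, 11.2 and 78.7 FPKM and at 5.66, 0.96, 11.7, 3.88 and 32.9 FPKM. Epcam stood at 59.2, 22.7, 88.1, 63.8 and 100.2 FPKM. In each case the lowest of the 5 values was that of cells labelled Hk2/Pkm2 with LIF, so the ratio against normal cells with LIF was smaller, 2.59 for Cldn6 and 2.35 for Cldn7 in place of 4.90 and 4.11. Epcam did not reach 2-fold against normal cells with LIF (0.75). Genes of the mesenchymal state in this list went both ways. Vim, at 144 to 32 FPKM, and Zeb1, at 3.51 to 0.69 FPKM, were lower, and Snai1, which represses Cdh1, was higher, at 1.45 to 3.94 FPKM. Against normal cells with LIF, Zeb1 (-0.96) and Snai1 (0.47) did not differ by 2-fold. Twist1, at 1.28 to 2.6 FPKM, Zeb2, at 0.076 to 0.27 FPKM, and Snai2, at 0.27 to 0.28 FPKM, did not reach 2-fold in either comparison. Among 12 measured genes of trophoblast and simple keratins, the 4 higher ones were all keratins. One of them, Krt19, did not reach 2-fold against normal cells with LIF (0.41). Krt18, a keratin of simple epithelia, stood at 5.25, 2.8, 6.44, 5.52 and 54.2 FPKM, and its partner Krt8 went from 6.2 to 21.6 FPKM, short of 2-fold against normal cells with LIF (0.89). Of the trophoblast factors, Tfap2c was lower, at 4.79 to 1.76 FPKM. At 40 days Ascl2, Eomes and Gata2 stood at 1.78, 1.5 and 1.25 FPKM, Gata3 at 0.61, Cdx2 at 0.29 and Elf5 at 0.096 FPKM.

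Markers of other cell types were compared as sums, and their part in the results was not tested. Summed FPKM over the mesoderm list was 3.51 with LIF and 12.8 at 40 days, over the haematopoietic and endothelial list 6.7 and 12, and over the muscle list 2.5 and 5.39. The mesoderm factors T, Mesp1 and Gsc stood between 0.20 and 0.24 FPKM at 40 days, and 2 of 14 measured members, Pdgfra and Runx1, were higher. Over all genes 10.3% were higher and 4.92% lower, so small counts of this kind are not read as a result. Neural genes summed to 59.7 and 37.6 FPKM, with 2 of 14 higher (Nes and Sox11) and 1 lower (Tubb3, though not by 2-fold against normal cells with LIF, at -0.88). Fibroblast and feeder genes summed to 214 and 247, of which 3 of 12 were higher, namely Acta2, Ccn1 and Ccn2. Acta2, smooth muscle actin, stood at 0.37, 0.028, 0.60, 0.046 and 6.77 FPKM, set apart at 40 days. Tagln, also of smooth muscle and fibroblasts, was listed at 0, 0, 9.99, 0 and 25.6 FPKM. The fibroblast collagens Col1a1, Col1a2 and Col3a1 were at 0.17, 0.14 and 0.050 FPKM, that is near 0, at 40 days.

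Genes induced by the transcription factors ATF4 and CHOP were high. These factors act in the integrated stress response, which cells mount when amino acids run short or proteins fold badly. Of 18 measured members, 10 were higher and none was lower, with a median of 1.37, and all 10 were set apart above the other 4 libraries. Atf3 stood at 0.61, 0.50, 0.63, 0.29 and 30.9 FPKM. Chac1, which degrades glutathione, stood at 3.85, 5.75, 2.29, 3.75 and 100.4 FPKM. Trib3, a pseudokinase that feeds back on ATF4, stood at 7.95, 11.6, 3.07, 5.69 and 53.4 FPKM, and the small chromatin protein Nupr1 at 3.5, 5.8, 1.14, 2.24 and 43.1 FPKM. None of these 4 was 2-fold higher in a 24-hour library than in the same cells with LIF, and Nupr1 and Trib3 were lowest in normal cells after 24 hours. Stc2 went from 0.67 to 13.7 FPKM, Vldlr from 0.075 to 4.3 FPKM and Cebpb from 2.06 to 12.6 FPKM. Atf4 itself, whose activity is set mainly at translation, went from 141 to 218 FPKM, a ratio of 0.62. Ddit3, which encodes CHOP, and Atf5 were listed at 0 in all 5 libraries and cannot be read. The serine synthesis genes Phgdh, at 16.2 to 17.6 FPKM, and Psat1, at 112 to 112 FPKM, which ATF4 also controls, stood level.

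The composite element that ATF4 forms with C/EBP proteins carries the letters TGATGNAA. These letters were searched on both strands of RefSeq promoter windows, 250 bases before to 50 after the start. They occur in 7 of 23 windows of the ATF4 and CHOP list and in 3.97% of all 32851 windows on GRCm38.p6. The higher members Stc2, Cebpb, Slc3a2, Mthfd2 and Ppp1r15a are not among the genes with a match. Slc7a11 has a match and was not 2-fold higher (0.56). The windows of Atf3 and Chac1, the list's highest ratios, are shown whole with the match in capitals, and 15 bases either side of the match are shown for Trib3, Nupr1, Vldlr and the transporter Slc1a4, which were chosen after their values were seen.
Atf3 (chr1:191183284-191183583, minus strand): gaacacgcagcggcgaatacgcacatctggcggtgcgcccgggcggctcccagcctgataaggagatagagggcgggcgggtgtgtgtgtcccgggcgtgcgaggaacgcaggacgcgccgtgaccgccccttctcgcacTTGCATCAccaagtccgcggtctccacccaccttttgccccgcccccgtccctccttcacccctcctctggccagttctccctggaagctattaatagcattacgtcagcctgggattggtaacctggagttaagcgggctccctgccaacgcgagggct
Chac1 (chr2:119350992-119351291, plus strand): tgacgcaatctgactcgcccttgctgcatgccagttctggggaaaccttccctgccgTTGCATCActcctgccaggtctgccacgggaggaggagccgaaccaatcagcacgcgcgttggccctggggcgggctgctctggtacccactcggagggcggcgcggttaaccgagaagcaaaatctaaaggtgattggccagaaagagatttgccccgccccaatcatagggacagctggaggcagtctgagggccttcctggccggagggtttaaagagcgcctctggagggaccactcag
Trib3 (chr2:152344024-152344061, minus strand): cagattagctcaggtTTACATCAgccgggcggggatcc
Nupr1 (chr7:126625558-126625595, minus strand): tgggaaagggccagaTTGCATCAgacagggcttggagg
Vldlr (chr19:27216805-27216842, plus strand): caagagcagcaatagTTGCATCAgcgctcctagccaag
Slc1a4 (chr11:20332695-20332732, minus strand): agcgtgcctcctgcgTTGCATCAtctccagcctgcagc
All 6 matches lie on the strand opposite to the gene as printed. The match begins 110 bases before the start in Atf3 and Nupr1, 193 in Chac1, 200 in Vldlr and 4 in Slc1a4, and lies after the start in Trib3. A match describes these letters and is no evidence of binding. GATAA, the core letters that GATA factors bind, were found in 4 of 14 windows of endoderm factors, 10 of 30 of the visceral endoderm list and 4 of 25 of the basement membrane list, against 25.4% of all windows. These windows do not include Foxq1, Gata4 or Gata6.

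Amino acid transporters were high as well. Of 16 measured members, 9 were higher and none was lower, with a median of 1.09, and TGATGNAA occurred in 4 of 23 windows of this list. Slc3a2, the chain that several transporters share, stood at 83.2, 86.2, 55.2, 72.3 and 272 FPKM, and its partner Slc7a5, just short of 2-fold, at 122, 145, 108, 129 and 284 FPKM. The neutral amino acid carrier Slc1a4 stood at 2.35, 2.32, 2.53, 1.71 and 25.4 FPKM and the glycine carrier Slc6a9 at 0.30, 1.64, 1.23, 1.22 and 13.3 FPKM. For Slc3a2, Slc1a4 and Slc6a9 the 40-day value was set apart. Slc38a2, at 67 to 65.5 FPKM, was level, and the cystine carrier Slc7a11 stayed low, at 0.87 to 1.76 FPKM. Of 20 aminoacyl-tRNA synthetases, none was 2-fold different in either direction, with a median of 0.27. Mthfd2, a mitochondrial folate enzyme, went from 57 to 153 FPKM, the 1 higher gene among 18 of serine, glycine and one-carbon metabolism. Tdh and Gcat, which break down threonine in sequence, were the 2 lower ones, with Gcat at 22.6 to 9.26 FPKM.

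Chaperones of the endoplasmic reticulum did not share this pattern. Of 20 members, 2 were higher and none was lower, with a median of 0.06. Herpud1, which takes part in degradation of misfolded proteins, stood at 7.08, 10.5, 7.87, 8.94 and 80.4 FPKM, and Edem1 stood at 6.39, 1.84, 1.14, 6.36 and 8.89 FPKM, which against normal cells with LIF was not a 2-fold difference (0.42). Hspa5, the main chaperone BiP, stood at 199, 182, 197, 185 and 118 FPKM, a ratio of -0.62, so it was lowest at 40 days. Calr, at 373 to 352 FPKM, and Xbp1, at 13.2 to 14.8 FPKM, were level.

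**Figure D4:**
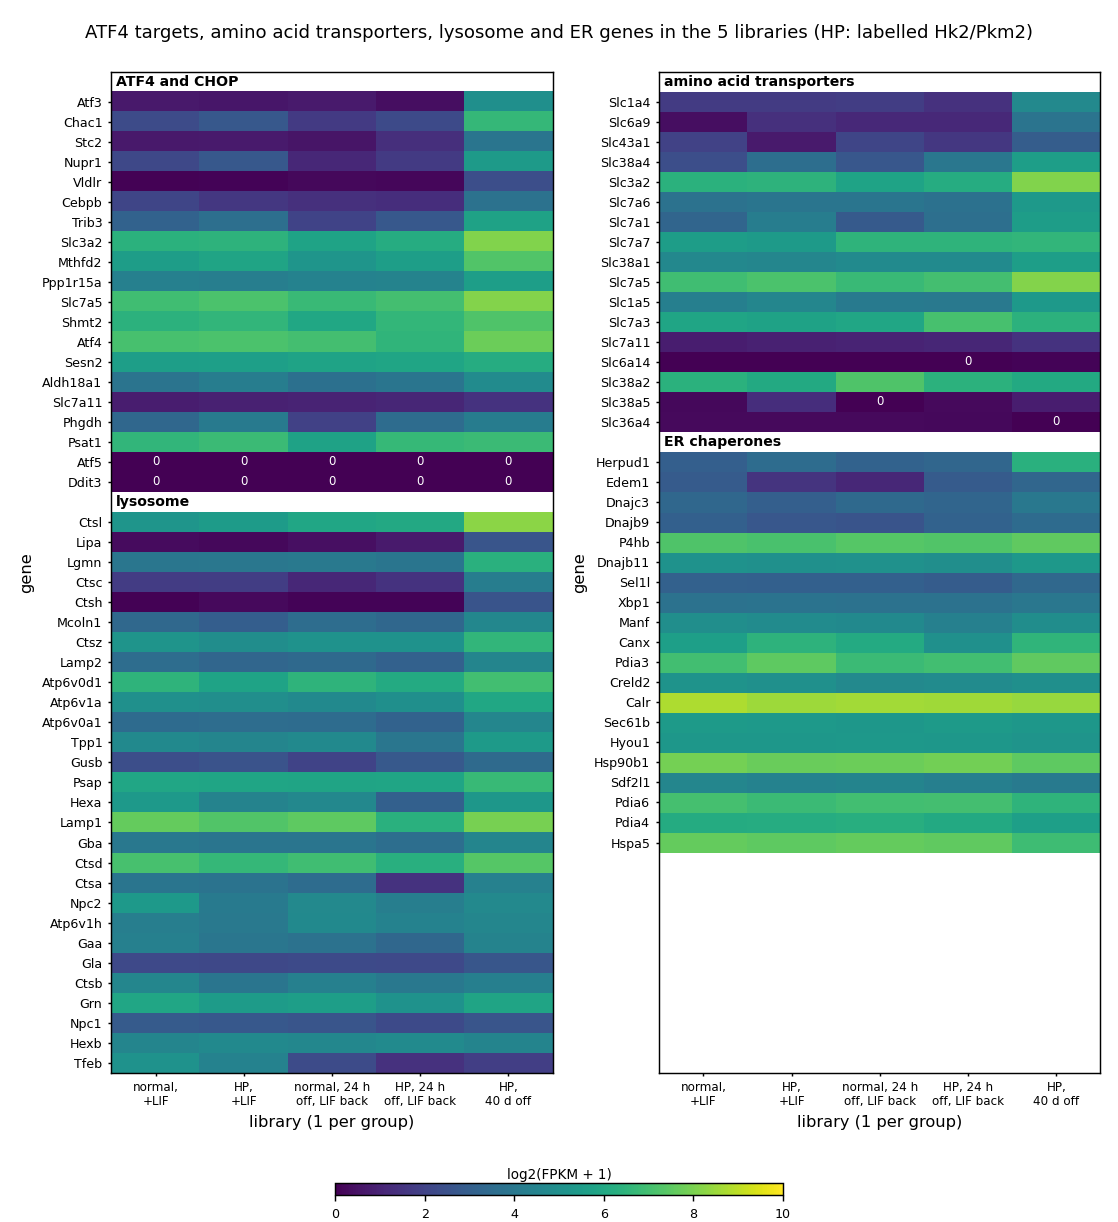
Colour shows log2(FPKM + 1) of ATF4 and CHOP, lysosomal, amino acid transporter and endoplasmic reticulum genes (rows, by list and ratio) in the 5 libraries (columns, 1 per group), and 0 marks a value listed at 0. The 40-day column is brightest for Atf3 to Ppp1r15a, for Ctsl to Ctsz and for Slc1a4 to Slc7a1, whereas most endoplasmic reticulum genes keep 1 colour across the 5 libraries.

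Lysosomal genes were higher in part. Of 28 measured members, 11 were higher, 1 was lower and the median was 0.84. The protease Ctsl stood at 36, 44.1, 58.9, 63.9 and 305 FPKM, legumain (Lgmn) at 14.1, 14.4, 15.4, 13.7 and 81.2 FPKM and Ctsc at 2.39, 2.53, 1.17, 1.78 and 17.8 FPKM. The acid lipase Lipa stood at 0.22, 0.16, 0.32, 0.65 and 5.2 FPKM. These 4 were set apart above the other libraries. The membrane protein Lamp1, at 153 to 249 FPKM, and Ctsd, at 100.03 to 162 FPKM, missed the 2-fold limit. Tfeb, a transcription factor of lysosomal genes, was the lower member, at 32.9, 20.7, 3.94, 1.69 and 2.62 FPKM, and both 24-hour libraries were near its 40-day level. In the interferon and MHC list, 5 of 15 measured members were higher and 3 lower, with a median of 0.18. Of the genes for antigen presentation by MHC class I, H2-K1 stood at 3.87, 6.88, 7.55, 11.6 and 36.5 FPKM, H2-D1 at 4.35, 5.47, 5.18, 7.24 and 24.1 FPKM and their partner B2m at 26.6, 14.1, 20.3, 8.67 and 36.6 FPKM. B2m was not 2-fold higher against normal cells with LIF (0.45). The transporter Tap1 and the antiviral protein Bst2 were the other higher members, at 0.30 to 3.3 FPKM and at 46.6 to 140.3 FPKM. H2-T23, at 0.094 to 0.096 FPKM, and the immunoproteasome subunits Psmb8, at 0.049 to 0.70 FPKM, and Psmb9, at 0.87 to 1.81 FPKM, did not reach 2-fold. Ifitm1, Ifitm2 and Ifitm3 were the 3 lower ones. Ifitm3 went from 248 to 68.6 FPKM. The transcripts Isg15 and Oasl2, induced by interferon, were at or below 0.14 FPKM at 40 days.

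Energy metabolism showed few 2-fold differences. Of 22 measured glycolysis genes, 1 was higher and 2 were lower, with a median of 0.07. The lower ones were Hk2 and the glucose transporter Slc2a1, which stood at 160.4, 151, 113, 113 and 46.9 FPKM. Ldha, at 477 to 482 FPKM, Gapdh, at 451 to 497 FPKM, and Aldoa, at 690.2 to 588 FPKM, were level. The neuronal enolase Eno2 was the higher one, at 1.04 to 4.21 FPKM. Of 32 genes of the tricarboxylic acid cycle, 2 were higher and 2 lower, and of 41 of the respiratory chain, none was higher and 1 was lower. The pentose phosphate pathway had 2 of 10 higher, Rpe and Prps2, of which Rpe was not 2-fold higher against normal cells with LIF (0.59).

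Cholesterol and antioxidant lists had medians below 0. In cholesterol and fatty acid synthesis, 5 of 26 measured members were lower and 1 was higher, with a median of -0.28. Fasn, fatty acid synthase, went from 34.7 to 13.5 FPKM and Mvd from 32.1 to 12.4 FPKM. Against normal cells with LIF, 3 of these 6 genes differed by 2-fold, and Fasn was just short of it (-0.95). Of 20 genes of the NRF2 and glutathione list, 2 were lower and none higher, with a median of -0.44. Sod2, the mitochondrial superoxide dismutase, stood at 80.2, 73.7, 21.2, 29.1 and 11.5 FPKM and was below its level with LIF in both 24-hour libraries too. Hypoxia targets were split, with 6 of 23 higher and 4 lower. Vegfa, the endothelial growth factor, stood at 4.03, 6.98, 1.92, 1.49 and 26.1 FPKM and Ddit4, an inhibitor of mTORC1, at 13.5, 11, 24.1, 14.7 and 53.2 FPKM. Slc2a1, Kdm3a, Bnip3l and Ankrd37 were lower, Ankrd37 just short of 2-fold against normal cells with LIF (-0.95).

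Most signalling lists held both higher and lower genes, where 10.3% of all genes were higher and 4.92% lower. In the Nodal list, with 3 of 15 higher and 3 lower, the Nodal inhibitor Lefty1 stood at 32.1, 7.39, 32.9, 18.8 and 94.5 FPKM and the co-receptor Tdgf1 at 133, 212, 54.3, 158 and 35.9 FPKM. Nodal itself was level, at 26.3 to 27.9 FPKM. Inhbb, an activin subunit, stood at 8.17, 17.2, 0.69, 0.71 and 0.39 FPKM and was near its 40-day level in both 24-hour libraries. In the BMP list, Bmp4 stood at 39.3, 79.96, 15, 15.1 and 4.2 FPKM and its target Id1 at 167, 126, 88.9, 77.9 and 34.1 FPKM, both set apart below all other libraries, while Bmpr2 and Id2 were the 2 higher members of 15. Id2, at 67, 20.1, 63, 39.9 and 41.4 FPKM, was low in cells labelled Hk2/Pkm2 with LIF and was not higher against normal cells with LIF, with a ratio of -0.68. In the Wnt list, with 3 of 17 higher and 4 lower, the Wnt inhibitor Dkk1 stood at 0.038, 0.085, 0.040, 0.014 and 6.94 FPKM. The feedback inhibitors Notum, at 6.96 to 0.49 FPKM, and Axin2, at 2.18 to 0.53 FPKM, which Wnt signalling induces, were lower, but Axin2 was not 2-fold lower against normal cells with LIF (-0.51). In the FGF list, with 6 of 18 higher and 2 lower, the receptors Fgfr3 and Fgfr4 went from 0.46 to 3.12 FPKM and from 0.12 to 3.95 FPKM. Spry4, a feedback inhibitor of the pathway, stood at 32.2, 75.8, 25.8, 38.3 and 17.2 FPKM, short of 2-fold against normal cells with LIF (-0.87). Ccn1, a matrix protein induced through YAP, stood at 22.4, 6.66, 26, 5.64 and 61 FPKM, and Ccn2 at 61.4, 23.8, 87.7, 38 and 65.4 FPKM. For Ccn2 both libraries of normal cells were near the 40-day level or above it.

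Immediate early genes included Jun, at 3.92, 1.33, 5.15, 1.55 and 16.3 FPKM, and Klf10, at 25.1 to 52.4 FPKM, among 5 of 18 that were higher, while Fos, at 2.56 to 2.73 FPKM, was level and Egr1 stood at 68.3, 52.9, 25.4, 24 and 28.2 FPKM. Cell cycle genes were mostly level. Of 31 genes of mitosis and replication, 2 were lower and none higher, with a median of -0.10. Pttg1, one of the lower ones, stood at 8.12, 58.9, 7.82, 61.1 and 16.6 FPKM and was not lower against normal cells with LIF, with a ratio of 0.95. Among 21 genes of the G1 phase, the inhibitor Cdkn1c stood at 10.6, 8.11, 39, 30.7 and 69.2 FPKM and the cyclin Ccnd3 at 152, 192, 63.1, 82.3 and 54.3 FPKM. Both 24-hour libraries lay between the 2 compared for Cdkn1c. Of 22 p53 targets, 5 were higher and 1 lower, against 10.3% and 4.92% of all genes. Pmaip1, which encodes the cell death protein Noxa and is induced both by p53 and by ATF4, stood at 0.19, 0.079, 0.59, 0.19 and 13.2 FPKM. The targets Bax, at 208, 85.7, 146, 148 and 183 FPKM, and Perp, at 34, 11.7, 28, 4.18 and 24.8 FPKM, were low in cells labelled Hk2/Pkm2 with LIF, and against normal cells with LIF their ratios were -0.18 and -0.44.

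Imprinted genes, of which 1 parental copy is silent, were higher in 6 of 20 cases and lower in 3. Over all genes 10.3% were higher and 4.92% lower, the shares to set beside the counts that follow. Igf2 stood at 1.6, 1.77, 0.66, 0.79 and 10.1 FPKM, its clearing receptor Igf2r at 5.62, 5.64, 5.97, 5.92 and 15.3 FPKM and the growth adaptor Grb10 at 9.07, 31.1, 11.4, 21.6 and 83.4 FPKM. Meg3 stood at 48.1, 20.3, 0, 0 and 4.57 FPKM and Mest at 59.5, 46.5, 68.4, 53.6 and 15.7 FPKM. The zeros of Meg3 after 24 hours are as listed. Germline genes included 5 higher of 17, among them Mael, of transposon control, at 0.52, 0.60, 1.24, 1.8 and 12.3 FPKM, the germ cell transcription factor subunit Taf7l, at 0.037, 0.046, 0.15, 0.19 and 3.16 FPKM, and the meiotic gene Sycp3, at 6.97, 6.62, 5.86, 9.01 and 24.9 FPKM. The 2 lower ones were Kit and Prdm14, and Kit was level against normal cells with LIF (-0.10). Zscan4f, expressed in a rare state like that of the 2-cell embryo, stood at 0.00096, 0.012, 0.022, 0 and 1.15 FPKM. Zscan4c and Zscan4d were listed at 0 in cells labelled Hk2/Pkm2 with LIF and stood at 0.70 and 0.43 FPKM at 40 days. The Zscan4 genes are near-identical copies, so the split between them is uncertain. Polycomb genes had 3 of 23 higher and 1 lower, near the shares over all genes. The lower one was the subunit Eed, at 152, 182, 96.9, 90.1 and 72.2 FPKM. Phc2, among the higher ones, was not higher against normal cells with LIF (-0.32). Among 6 DNA methylation genes Dnmt3b was the only one that differed by 2-fold. Cytosolic ribosomal protein genes had 2 of 33 higher and 1 lower, and many have near-identical copies, so single members are uncertain. Replication histones had 1 of 15 higher (H4c1) and 1 lower (H2ax), and most are poorly covered by libraries made from polyadenylated RNA. H4c1 was not 2-fold higher against normal cells with LIF (0.11). H2ax and H2az1 had high FPKM, at 365 to 160 and at 204 to 107. Of 11 reference genes none was 2-fold different, although Actb went from 969 to 588 FPKM.

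**Figure D5:**
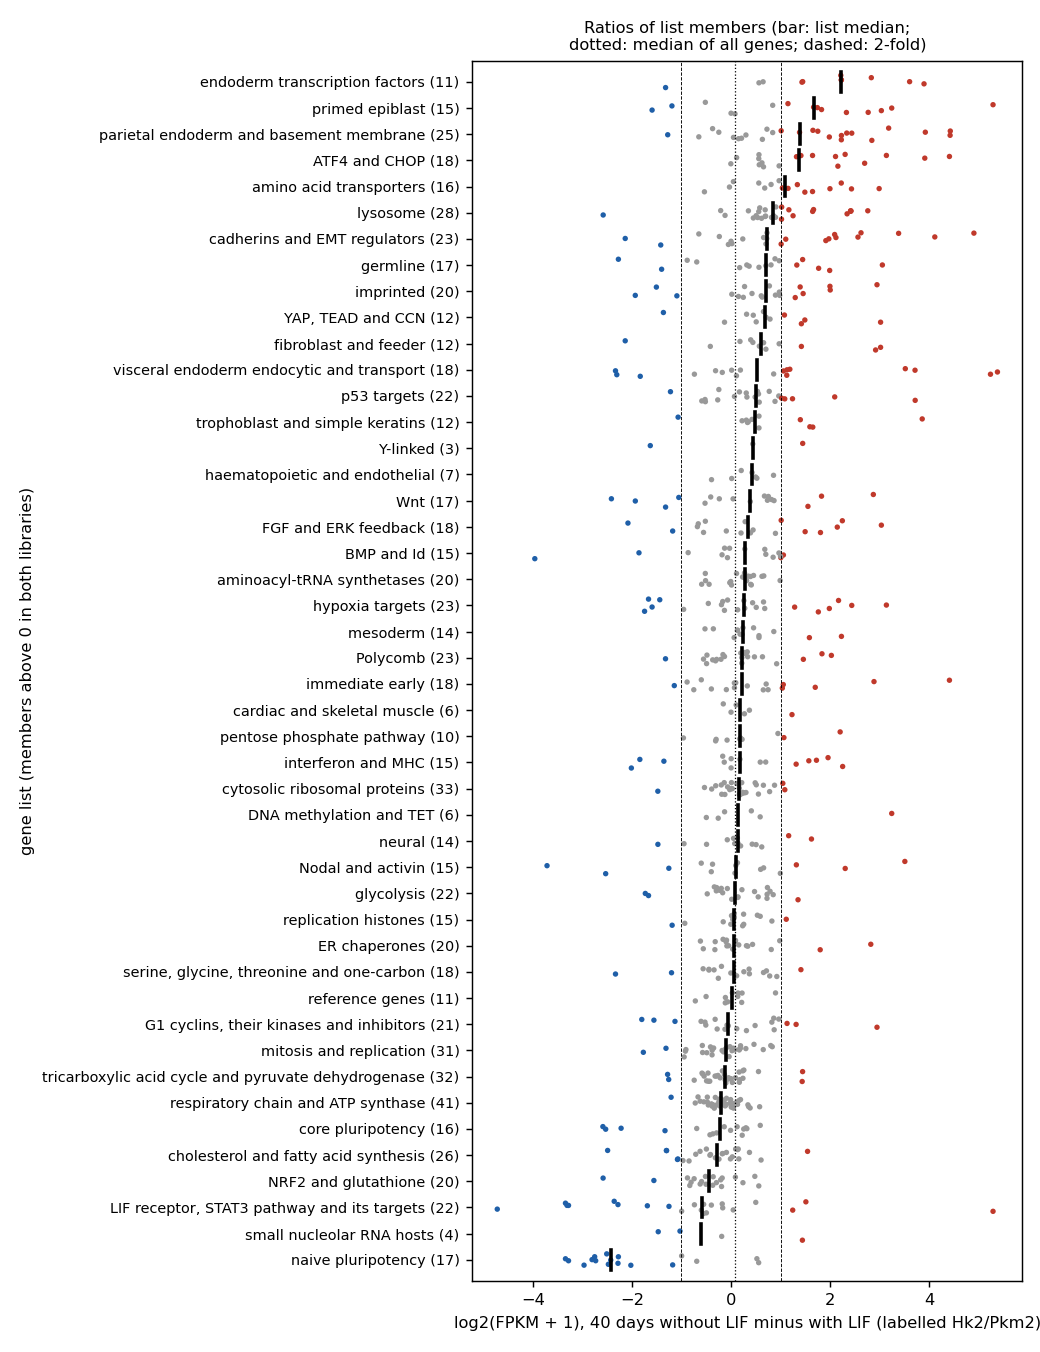
Each point is the ratio of 1 list member above 0 in both libraries, 40 days minus with LIF in log2(FPKM + 1), with red at least 2-fold higher and blue at least 2-fold lower, for the lists with 3 or more such members (number in parentheses). Black bars are list medians, the dotted line is the median of all genes at 0.09, and the dashed lines mark 2-fold. The medians run from -2.43 for naive pluripotency to 2.22 for endoderm transcription factors.

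Genes were also ranked by ratio and by difference in FPKM, among 9147 genes with a mean of at least 1 FPKM and no clone name. All 20 genes with the highest ratios were set apart from the other 4 libraries, as were 12 of the 20 with the lowest. Over all genes tested, 3.77% were set apart above and 1.13% below. Being set apart uses the same 40-day value and library with LIF as the ratio, so these counts follow in part from the ranking. Car4, carbonic anhydrase 4, stood at 0.88, 0.40, 7.1, 10.4 and 38 FPKM. Kcnk1, a potassium channel, stood at 6.62, 1.74, 17.4, 12.8 and 38.5 FPKM, Tmem54 at 0.93, 0.14, 6.86, 9.76 and 21.3 FPKM and the myosin light chain Myl9 at 1.13, 0.18, 5.44, 2.23 and 13.5 FPKM. In each of these 4 genes, cells labelled Hk2/Pkm2 with LIF held the lowest of the 5 values. Retreg1, a receptor for autophagy of the endoplasmic reticulum, stood at 0.35, 0.20, 0.39, 0.27 and 14 FPKM. The glutamine carrier Slc38a7 stood at 0, 1.98, 14.8, 14.9 and 35.9 FPKM, where the 0 is as listed.

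At the other end of the ranking, Hmgn2, a nucleosome-binding protein, stood at 55.3, 58.8, 64.2, 70.00 and 1.38 FPKM. It was level in the other 4 libraries and near 1 FPKM at 40 days, and because it has near-identical processed copies in the genome its value is uncertain. Trh, the precursor of thyrotropin-releasing hormone, stood at 160.4, 364, 28.5, 101 and 32.9 FPKM, Hmces, a protein that shields abasic DNA, at 234, 217, 105, 100.03 and 23 FPKM, and the chromatin protein Brwd1 at 21.4, 23.9, 9.04, 13.1 and 1.5 FPKM. The neurotrophin receptor Ngfr stood at 22.5, 19.6, 13.9, 7.23 and 1.03 FPKM, and the transcription factors Pou4f2 and Msc at 23.2, 11.9, 9.5, 4.41 and 0.26 FPKM and at 21.4, 14.2, 3.39, 1.05 and 0.40 FPKM. The level after the 24-hour withdrawal lay between those with LIF and at 40 days for Ngfr, Hmces, Brwd1, Pou4f2 and Msc. Jam2, Lrrc34, Fam25c, Mylpf, Zfp553, Pcolce and Nkx6-3 complete the 20 together with genes described above.

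By FPKM the metallothioneins, which bind zinc and copper, differed most upward. Mt2 stood at 946, 804, 1131, 1117 and 2189 FPKM and Mt1 at 715, 468, 1031, 895 and 1363 FPKM, so their values after 24 hours were also above those with LIF. H3f3b, a gene of histone H3.3, stood at 203, 228, 200.5, 261 and 653 FPKM and the nucleolar protein Ncl at 44.6, 52.9, 41.1, 40.8 and 249.6 FPKM, each highest at 40 days. Mdk, a heparin-binding growth factor, stood at 94.4, 108, 139, 203 and 326 FPKM. Tmsb4x, which binds actin monomers, stood at 683, 656, 376, 264 and 108 FPKM, and Spp1, osteopontin, at 446, 467, 150.01, 119.5 and 81.3 FPKM. Hspa8, the constitutive chaperone, stood at 294, 266, 269, 285 and 77.1 FPKM and Trim28, a corepressor that silences retroviruses, at 809, 785, 788, 862 and 410.4 FPKM. Tmsb4x and Spp1 were lower in both 24-hour libraries than with LIF, while Hspa8 and Trim28 were near their levels with LIF there. Tuba1b and Tubb4b, also among the 20 with the largest difference downward, are listed at 0 in 1 library each and have near-identical copies, so their values are uncertain.

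The 24-hour withdrawal of normal cells shares no library with the comparison and gives a separate view. Of 11761 genes above 0 in those libraries too, 280 were at least 2-fold higher after the 24-hour withdrawal of normal cells (2.38%) and 358 at least 2-fold lower (3.04%). Of the 1285 genes higher at 40 days in this set, 107 were also higher in normal cells, 8.33% of the 40-day genes and 38.2% of the normal-cell genes, and 35 were lower there. Of the 615 genes lower at 40 days, 132 were also lower in normal cells, 21.5% of the 40-day genes and 36.9% of the normal-cell genes, and 24 were higher there. List medians for the comparisons are given side by side. For the naive list the median ratio was -2.43 at 40 days and -1.14 for normal cells after 24 hours. For the endoderm transcription factors it was 2.22 and -0.06, and for the ATF4 and CHOP list 1.37 and -0.26. In cells labelled Hk2/Pkm2 after 24 hours, a comparison that shares the library with LIF, the medians were -1.69, -0.01 and -0.23.

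Transcripts of 1 gene went in opposite directions by at least 2-fold in 3 genes, counting transcripts above 1 FPKM in at least 1 of the 2 libraries. Of Kdm2b, a Polycomb-recruiting demethylase, 1 RefSeq transcript went from 10.6 to 4.47 FPKM and another from 4.21 to 13.8 FPKM. For glycerol kinase (Gk) they went from 2.56 to 0.72 and from 0.78 to 3.83 FPKM. The split of fragments between transcripts is itself an estimate.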

How the data were processed

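One deposited table held FPKM per RefSeq transcript for 5 libraries of mRNA, made with a TruSeq RNA kit that does not mark strand, per the labels' protocols, so overlapping and antisense genes were not separated. The authors computed FPKM with Cufflinks 2.0.2 after TopHat2 2.0.7 on mm9, per the submitters' processing notes. FPKM is scaled to length and depth, so no count test was run, and read counts and depth are known only as the estimate given above.

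Transcripts (28698, of which 28066 matched a RefSeq gene symbol, GRCm38.p6) were summed per gene, and 337 genes with a hyphen in a cell were left out. Ratios used a pseudocount of 1. With 1 library a side no test was run. Processing used Python 3.11.15, numpy 2.4.6 and pandas 2.3.3, and the ratio was tested on simulated data. The members and the 47 gene lists were chosen with earlier results of these data known. Genes were named as list members, as the 20 highest and 20 lowest ratios, the 20 largest differences in FPKM each way, Hk2 and Pkm. The promoter stretches of Trib3, Nupr1, Vldlr and Slc1a4 were added after values were seen. In all 12 alternatives were set out and 1, genes above 0 in all 5 libraries, was added after seeing the data. Values of a few single genes are not reported here, though list counts and medians include them.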

Additional observations from a re-analysis of the deposited data

How the results depend on the processing

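The counts of higher and lower genes stayed within 1.5 times of 1362 and 647 under each alternative except 3. With a pseudocount of 0.1 they were 2718 and 972, and with a pseudocount of 5 they were 465 and 307. Rescaling to TPM gave 2204 higher genes. By construction the pseudocount sets how far genes of low FPKM count. Rescaling to TPM also changes the weight of the pseudocount, which stayed at 1, and its share in the TPM counts was not tested. Quantile normalization gave 979 and 850.

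Of 277 gene ratios followed, 9 of those at least 2-fold changed sign, all with normal cells with LIF as the comparator: Bax (-0.18), Ddx3y (-2.20), E2f5 (-0.15), Id2 (-0.68), Perp (-0.44), Phc2 (-0.32), Plagl1 (0.29), Pttg1 (0.95) and Trf (0.16). For these the 2 libraries with LIF differ. With that comparator a further 95 ratios moved by over 0.5 on the log2 scale and 167 did not. As many as 132 moved with a pseudocount of 5, 86 with a pseudocount of 0.1, 67 under TPM and 3 with the highest transcript alone. No list median of 1 or more in size changed sign. The endoderm factor median was 0.82 with a pseudocount of 5 and 1.43 with genes listed at 0 in 1 library kept. It was 1.33 against normal cells, with members then taken as those above 0 in that comparison. No paired analysis was possible because each group has 1 library. Leaving out a replicate was not possible for the same reason. Depth was estimated, not counted, so ratios below 1 FPKM carry counting error that is not given here.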

Other observations

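The following genes and families were chosen after their values were seen. Tetraspanins, membrane organisers, had 6 of 18 measured members higher at 40 days and none lower, with a median ratio of 0.71. Dual specificity phosphatases, which switch off MAP kinases, had 8 of 23 higher and 1 lower, with a median of 0.57. Of 15 tubulins, 3 were higher and 5 lower, with a median of -0.46, and several have near-identical copies. None of 14 Integrator subunits was 2-fold different, with a median of -0.51.

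Genes set apart at 40 days outside the lists included 6 that are given here. Gdf15, a stress-induced hormone, stood at 1.71, 1.84, 1.28, 0.94 and 16.3 FPKM. Tinagl1, a basement membrane protein, stood at 1.33, 0.76, 0.54, 0.13 and 17 FPKM, Timp2, an inhibitor of matrix proteases, at 0.38, 0.36, 0.43, 0.25 and 7.96 FPKM, and F3, tissue factor, at 3.77, 4.11, 5.24, 4.68 and 34 FPKM. Klb, a co-receptor for FGF hormones, stood at 0.015, 0.027, 0, 0.045 and 5.13 FPKM. The heparan sulfate enzyme Hs3st1 stood at 0.25, 0.15, 0.34, 0.19 and 9.02 FPKM. Each of these 6 was highest at 40 days.

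Some genes were listed at 0 in 1 of the 2 libraries and stand outside the ratios. There were 2190 at 0 only with LIF and 989 at 0 only at 40 days. Of these, 57 and 42 had at least 10 FPKM in the other library. Snhg1, a host of small nucleolar RNAs, was listed at 159.5, 0, 164, 158 and 708 FPKM. Rps18 was listed at 185, 152, 157, 157 and 0 FPKM and Slirp at 158, 161, 166, 168 and 0 FPKM. Of the 42, 25 had at least 1 FPKM in all of the other 3 libraries, so a listed 0 can stand against steady values elsewhere.

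Ratios were also summarised by chromosome. Over the 20 chromosomes with at least 20 genes at 1 FPKM or more in every library, the median ratio lay between -0.05 and 0.18.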
